A study of Danio rerio with 6 samples.

Results

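The 7 vitellogenin genes of the zebrafish, vtg1 to vtg7, were followed through RNA sequencing libraries of pre-vitellogenic (PV) ovarian follicles. They were taken by their Ensembl identifiers and are 7 of the 32057 genes in the deposited count table, and all 7 passed the filter on low counts. The family was chosen by its level in these same libraries, which varied strongly within a genotype, so its levels are given as a description with no test. The mutant follicles came from fish homozygous for a ybx1 mutation (ybx1-/-) and the control follicles from wild-type fish (ybx1+/+). Both were of the AB strain, and each genotype had 3 libraries of total RNA. The series describes a block, seen by histology, of mutant follicles at the step into vitellogenesis. The kind of ybx1 lesion, the age of the fish and the number of fish or follicles behind a library are not given in the sources used here, so the p-values below measure only the spread between these libraries, which may be technical in part.

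Vitellogenins are large lipid-carrying proteins from which egg yolk is made. In fish they are produced mainly by the liver, where oestrogen acting through its nuclear receptors switches their genes on. They travel in the blood and are taken into growing oocytes by receptor-mediated endocytosis, after which lysosomal proteases such as cathepsin D cut them into the lipovitellins and phosvitin of the yolk. PV follicles have not yet begun this uptake. Most zebrafish vitellogenins carry a serine-rich phosvitin domain, and the product of vtg3 lacks it. Several of the genes are close copies of each other, so reads may be split uncertainly among them, and their sum was used as the level of the family.

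The libraries held 20087447 to 37764782 counts in mutants and 16600019 to 26547338 counts in wild type. Transcripts that mark oocytes were abundant in every library: the 22 matched genes of the oocyte list, among them those of the egg coat proteins zp2.1, zp2.2, zp2.3 and zp2.5, summed to 22004 to 24533 CPM (counts scaled to a common library size) in mutants and 21747 to 23718 CPM in wild type. The ybx1 transcript itself was present in mutants at 253, 243 and 229 CPM, against 274, 262 and 301 CPM in wild type (log2 fold change -0.21 ± 0.06 SE, edgeR adjusted p = 0.0244), a call lost without mutant 2, mutant 3, wild type 1 or wild type 3. A gene count does not show the lesion, so this checks the labels only weakly. The transcript of cdkn1a, a cell-cycle inhibitor named in the series title, had 2, 1.46 and 1.29 CPM in mutants and 2.4, 1.85 and 1.87 CPM in wild type (edgeR adjusted p = 0.296).

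Vitellogenin transcripts were detected in all 6 libraries, and their level differed far more between libraries of one genotype than is usual in these data. The family summed to 213, 26.6 and 3.13 CPM in mutants 1 to 3, against 898, 1449 and 22.1 CPM in wild types 1 to 3. Wild types 1 and 2 were highest, mutant 1 lay below them, mutant 2 and wild type 3 lay near each other, and mutant 3 was lowest. These sums rest on 6270, 531 and 119 counts in mutants, against 23979, 24229 and 531 counts in wild type. The family thus took 0.0212%, 0.00264% and 0.000315% of all counts in mutants, against 0.0903%, 0.146% and 0.00219% in wild type. In such bulk samples, fewer cells of a type and less RNA per cell cannot be told apart.

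**Figure D1:**
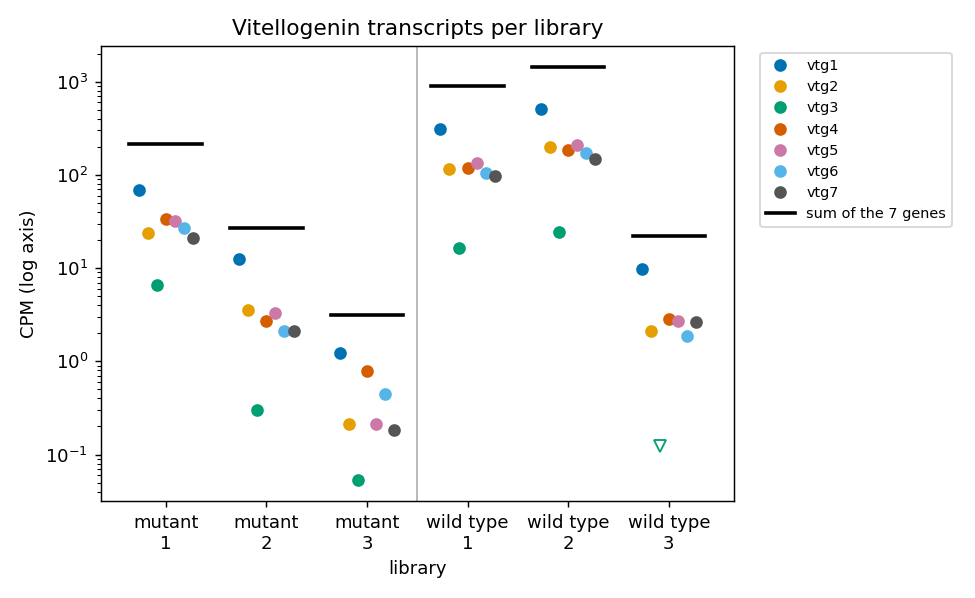
CPM (log axis) of each vitellogenin gene in each library, mutants left of wild types. Circles are single genes, black bars are the sum of the 7 genes, and the open triangle marks vtg3 in wild type 3, listed at 0 and drawn at the floor of 3 counts (0.125 CPM). The sums run from 3.13 CPM in mutant 3 to 1449 CPM in wild type 2, and the genotypes overlap.

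The gene vtg1 (ENSDARG00000092233) had 69, 12.5 and 1.24 CPM in mutants 1 to 3, against 314, 510 and 9.81 CPM in wild types 1 to 3. These values rest on 2033, 250 and 47 counts in mutants, against 8388, 8528 and 236 counts in wild type. For vtg2 (ENSDARG00000055809) the levels were 23.9, 3.56 and 0.211 CPM in mutants, against 116, 201 and 2.12 CPM in wild type. Both genes were highest in wild types 1 and 2 and lowest in mutant 3, and mutant 1 exceeded wild type 3. For vtg3 (ENSDARG00000016448), the form without phosvitin, the levels were 6.55, 0.301 and 0.0527 CPM in mutants, against 16.4, 24.6 and 0 CPM in wild type. This gene was at 0 counts in wild type 3 and rested on 6 counts in mutant 2 and 2 counts in mutant 3, so the order of those libraries could not be read at this depth.

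The other 4 genes, which lie beside vtg2 in the genome, repeated the pattern. Levels of vtg4 (ENSDARG00000078429) were 33.3, 2.71 and 0.79 CPM in mutants, against 118, 187 and 2.87 CPM in wild type. Those of vtg5 (ENSDARG00000092126) were 32, 3.31 and 0.211 CPM in mutants, against 133, 208 and 2.74 CPM in wild type. Mutant 2 was close to wild type 3 in both. For vtg6 (ENSDARG00000016825) they were 27.2, 2.11 and 0.448 CPM in mutants, against 104, 171 and 1.87 CPM in wild type. Lastly, vtg7 (ENSDARG00000092419) had 20.9, 2.11 and 0.184 CPM in mutants, against 96.5, 147 and 2.66 CPM in wild type. For all 7 genes the values of the genotypes overlapped, because mutant 1 exceeded wild type 3.

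Stepping down the libraries by the family sum, wild type 2 stood 1.61-fold above wild type 1, which stood 4.22-fold above mutant 1. Mutant 1 stood 7.99-fold above mutant 2, which stood 1.21-fold above wild type 3, and wild type 3 stood 7.04-fold above mutant 3. No step between neighbours was as large as the range within either genotype. Mutant 3 was lowest for 6 of the genes, vtg3 being the exception.

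The mean of the family was lower in mutants. On the log2 scale this was by less than the range within either genotype, but by more than either standard deviation. The mean was 80.9 ± 115 CPM in mutants and 790 ± 720 CPM in wild type (SD, n = 3 each). On the log2(CPM + 0.5) scale the means were 4.79 ± 2.94 in mutants and 8.27 ± 3.29 in wild type (SD, n = 3 each), a difference of -3.48 with a standard error of 2.54. The standard error of single genes was 2.13 for vtg3 to 2.49 for vtg5, and their difference lay between -3.40 for vtg7 and -2.03 for vtg3. No p-value is given for these genes, because they were chosen with their levels in these libraries known. Within mutants the highest library exceeded the lowest 67.9-fold, and within wild types 65.7-fold. For single genes this range was 42.1-fold for vtg4 to 152-fold for vtg5 within mutants, and 52-fold for vtg1 to 94.9-fold for vtg2 within wild types, leaving out vtg3 in wild type, where 1 library was at 0. Across genotypes, wild type 2 exceeded mutant 3 by 462-fold, while mutant 1 exceeded wild type 3 by 9.65-fold. The size of the mean difference hung on single libraries: it was -5.37 without wild type 3, -4.96 without mutant 1, -2.37 without wild type 2 and -2.02 without mutant 3, negative in each case.

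Spread was then compared with that of the other genes, as a description, since this variability was part of why the genes were chosen. The standard deviation of log2(CPM + 0.5) between libraries of one genotype, pooled over the genotypes, was between 2.61 for vtg3 and 3.04 for vtg5. The median over the 17385 genes that passed the count filter was 0.12. The vitellogenins held ranks 1 to 7 for spread, and the largest value outside the family was 2.33, of the gene ENSDARG00000093425, which carries no symbol in the reference used.

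**Figure D2:**
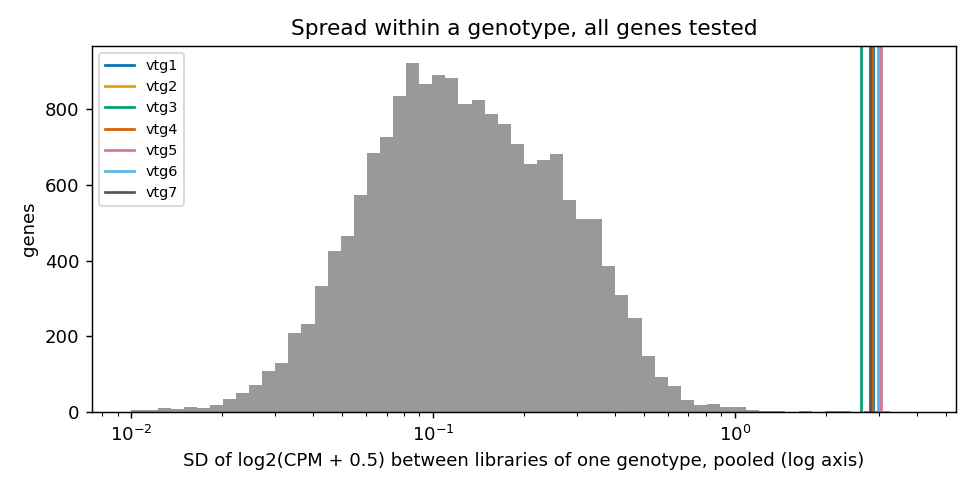
Number of genes (vertical axis) by the pooled within-genotype standard deviation of log2(CPM + 0.5) (horizontal log axis) over the 17385 genes tested. Coloured lines mark the vitellogenins, which sit between 2.61 and 3.04 at the far right, against a median of 0.12.

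The members varied together. Over the 6 libraries, Pearson's r of log2(CPM + 0.5) between members lay between 0.952 (vtg1 with vtg3) and 1 (vtg4 with vtg6) for the 21 pairs. This is a description, over genes counted in the same libraries that may also share reads. On GRCz12tu, an assembly other than the GRCz11 of the submitters' processing notes, 5 members neighbour each other on 1 chromosome in the order vtg5, vtg4, vtg6, vtg7 and vtg2, with other annotated genes among them. The gene vtg3 lies on another chromosome, and vtg1 was not matched in that annotation. A further annotated gene of the cluster, vtg8 (ENSDARG00000092028), is not a member and was at or near 0 throughout, with 0, 0 and 8 counts in mutants, against 5, 0 and 4 counts in wild type. Near the cluster, with other annotated genes between, lies mcoln2, the gene of a lysosomal cation channel. It stood at 72.7, 73.4 and 67.7 CPM in mutants, against 65.4, 59.8 and 58.6 CPM in wild type. It was higher in every mutant than in every wild type, and did not show the library differences seen in the vitellogenins.

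The make-up of the family was broadly similar in the 3 libraries with many vitellogenin counts, but some shares of mutant 1 lay apart from those of both wild types. The share of vtg1 was 32.4% (95% Wilson interval 31.3% to 33.6%) in mutant 1, against 35% (34.4% to 35.6%) in wild type 1 and 35.2% (34.6% to 35.8%) in wild type 2. In the poorer libraries it was 47.1% (42.9% to 51.3%) in mutant 2 and 39.5% (31.2% to 48.5%) in mutant 3, against 44.4% (40.3% to 48.7%) in wild type 3. The vtg1 share was therefore higher in mutant 2 and wild type 3, which held 531 vitellogenin counts each, than in the rich libraries, beyond counting error. Among genes with 1 to 10 counts, 59.4% to 63.6% per library had an even count, more than for odd counts, so single counts may not be independent and the intervals, which cover counting error only, may be too narrow. With every 2 counts taken as 1, the vtg1 intervals of mutant 2 (41.2% to 53.2%) and wild type 3 (38.7% to 50.5%) still lay above those of the rich libraries. The vtg1 interval of mutant 1 (30.8% to 34.1%) then met that of wild type 1 (34.1% to 35.8%). The shares are of counts and not corrected for transcript length, so they do not order the genes.

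The share of vtg3 was 3.08% (2.68% to 3.54%) in mutant 1, against 1.83% (1.66% to 2%) in wild type 1 and 1.70% (1.55% to 1.87%) in wild type 2. It was thus higher in mutant 1 than in the rich wild-type libraries, in a single mutant library. Wild type 3 had 0 of 531 counts, for which the floor of 3 counts is a share of 0.565% and the upper Wilson bound 0.718%. The share of vtg4 was 25.2% (18.3% to 33.7%) in mutant 3, from 30 counts, while it lay at 15.6% and 10.2% in mutants 1 and 2 and between 12.9% and 13.1% in wild type. The interval of vtg4 in mutant 3 lay above that of every other library. However, with every 2 counts taken as 1 it (16.1% to 37.8%) overlapped that of mutant 1 (14.4% to 16.9%). The vtg4 interval of mutant 1 (14.8% to 16.5%) lay above wild types 1 (12.7% to 13.5%) and 2 (12.5% to 13.4%). It stayed above both (upper bounds 13.7% and 13.5%) with every 2 counts taken as 1.

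Among the remaining members, vtg2 made up 11.2%, 13.4% and 6.72% of the family counts in mutants, against 12.9%, 13.9% and 9.6% in wild type. The share of vtg5 was 15%, 12.4% and 6.72% in mutants, against 14.9%, 14.4% and 12.4% in wild type. Both were lowest in mutant 3, where each rested on 8 counts. The vtg2 interval of mutant 1 (10.5% to 12%) lay below wild types 1 (12.5% to 13.4%) and 2 (13.4% to 14.3%). With every 2 counts taken as 1, it (10.2% to 12.4%) overlapped that of wild type 1 (12.3% to 13.5%). For vtg6 the share was 12.8%, 7.91% and 14.3% in mutants, against 11.5%, 11.8% and 8.47% in wild type. That of vtg7 was 9.81%, 7.91% and 5.88% in mutants, against 10.7%, 10.2% and 12.1% in wild type. The vtg7 shares of all mutants were below those of all wild types, but the interval of mutant 1 (9.1% to 10.6%) overlapped that of wild type 2 (9.79% to 10.6%). The shares of the other 6 genes overlapped between genotypes. The separation of vtg7, a single member on 3 libraries of each genotype, is therefore not read as a result.

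**Figure D3:**
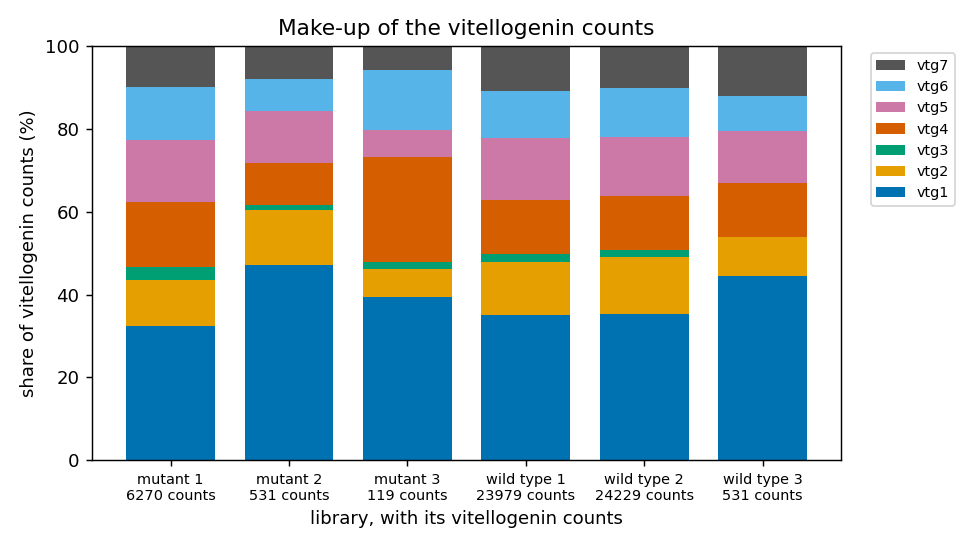
Share of the vitellogenin counts (percent, vertical axis) taken by each gene in each library, with the library's vitellogenin counts below it. The vtg1 share runs from 32.4% to 47.1%, and vtg4 reaches 25.2% in mutant 3, a library with 119 vitellogenin counts.

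The deposited normalized values gave the same library order, with 5169, 642 and 103 in mutants for the family sum, against 21802, 35342 and 531 in wild type. The ratio of the deposited value to the count, divided by its median over the genes of the library, rounded to 1 for vtg2, vtg5 and vtg6 in every library (3 significant digits). For vtg4 it was not: in mutant 3 the deposited value per count was 2.03 times the library's median, while it lay between 0.859 and 0.881 times the median in the other libraries. The vtg4 share of mutant 3 is 38.6% on the deposited scale, against 25.2% from the counts. A value of vtg4 in that library therefore depends on which table is used. Smaller shifts were seen in other members. For vtg1 the ratio was 1.17 times the median in mutant 3 and 0.968 to 0.969 times in the other libraries. For vtg7 it was 1.06 times in mutant 1, 1.05 times in wild type 2 and 0.975 times elsewhere.

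Other transcripts shared the pattern of the family. Among 495 genes outside it that passed the count filter and ranged over at least 2 log2 units, those most like the family sum were ranked by Pearson's r over the 6 libraries, as a description. The closest was tfa, the gene of the plasma iron carrier transferrin, with 5.77, 2.11 and 1.13 CPM in mutants, against 10.8, 14.3 and 1.95 CPM in wild type (r = 0.991, Spearman's rho = 1). The next was ENSDARG00000093425, with 5.43, 0.703 and 0.0527 CPM in mutants, against 15.8, 28.9 and 0.291 CPM in wild type (r = 0.982, rho = 1). Both had the library order of the family, but this rests on few counts in the low libraries. For tfa, mutant 2 and wild type 3 were close, at 42 and 47 counts. ENSDARG00000093425 had 14 and 2 counts in mutants 2 and 3 and 7 counts in wild type 3.

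The 10 most alike included 3 apolipoprotein genes. The gene apoa2, of a high-density lipoprotein component, had 5.36, 0.201 and 0.0263 CPM in mutants, against 6.89, 7.96 and 0.332 CPM in wild type (r = 0.960, rho = 0.943). The related apoa1b, of the main high-density apolipoprotein, had 5.74, 0 and 0.079 CPM in mutants, against 5.69, 7.9 and 0.0831 CPM in wild type (r = 0.920, rho = 0.771). The gene apobb.1, of the apolipoprotein B of very-low-density particles, had 3.73, 0.401 and 0.105 CPM in mutants, against 2.06, 5.02 and 0.332 CPM in wild type (r = 0.920, rho = 0.943). In all 3, mutant 1 stood with wild types 1 and 2, and mutants 2 and 3 stood with wild type 3. In mutant 2, mutant 3 and wild type 3 these genes were near the floor. There apoa2 had 4, 1 and 8 counts, apoa1b 0, 3 and 2, and apobb.1 8, 4 and 8, so their order among these libraries could not be read.

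The other genes among the 10 most alike were cp (the copper oxidase ceruloplasmin), serpina1 and serpina1l (plasma protease inhibitors), fetub (fetuin B) and FADS3 (symbol as in the reference table, a fatty acid desaturase in mammals). Their r lay between 0.890 for FADS3 and 0.931 for cp. Their highest level in any library was 5.20 CPM, of cp in wild type 2. Without the 2 libraries farthest from the median family level, mutant 3 and wild type 2, 4 libraries were left. Over these, r was 0.825 or above for 9 of the 10 genes and 0.641 for FADS3. The genes were picked for a high r over these same libraries, so this is no separate check. Mutant 1 and wild type 1 were high and mutant 2 and wild type 3 low in vitellogenin, so r mostly restates that contrast. Of the 10 genes, 7 were on the liver list described next, which supplied 12 of the 495 genes ranked. Low liver genes such as apoa1b passed the count filter only through mutant 1 and wild types 1 and 2. A high r was thus partly fixed in advance for them, and the 7 are a description only.

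Liver transcripts were few in every library, and their sum was highest in the libraries richest in vitellogenin. Of 34 listed plasma protein and liver genes, 31 matched an identifier and 22 passed the count filter. Of these 22, 21 had a positive r with the family sum, with a median of 0.88 and a range from -0.03 to 0.99. Over all 17385 genes tested, 8303 had a positive r, with a median of -0.04. Low genes such as fabp10a, ahsg1 and apoa1b passed the filter only through mutant 1 and wild types 1 and 2, the richest in vitellogenin. A positive r was thus partly fixed in advance for them, and all genes tested are not a like background. Summed over the 31 matched genes, the list stood at 54.6, 16.2 and 17 CPM in mutants, against 60.1, 79.5 and 13.2 CPM in wild type. Mutant 1 and wild types 1 and 2 were high, and the other 3 were low. Among the low 3 the sums did not follow the family. Mutant 3 had the highest liver sum of them and the lowest vitellogenin sum, 3.13 CPM against 26.6 CPM in mutant 2 and 22.1 CPM in wild type 3. The liver fatty acid binding protein gene fabp10a, a defining liver marker, had 2.21, 0 and 0 CPM in mutants, against 2.28, 1.38 and 0 CPM in wild type, and hp, of haptoglobin, was at 0 in all 6 libraries. Of the remaining liver genes with the highest levels, c3a.1, of complement C3, had 6.72, 4.07 and 4.14 CPM in mutants, against 4.98, 6.40 and 1.29 CPM in wild type. The gene rbp4, of the plasma retinol carrier, had 4.07, 3.26 and 3.19 CPM in mutants, against 4.90, 5.20 and 2.91 CPM in wild type. The part of liver RNA in the vitellogenin levels was not tested.

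**Figure D4:**
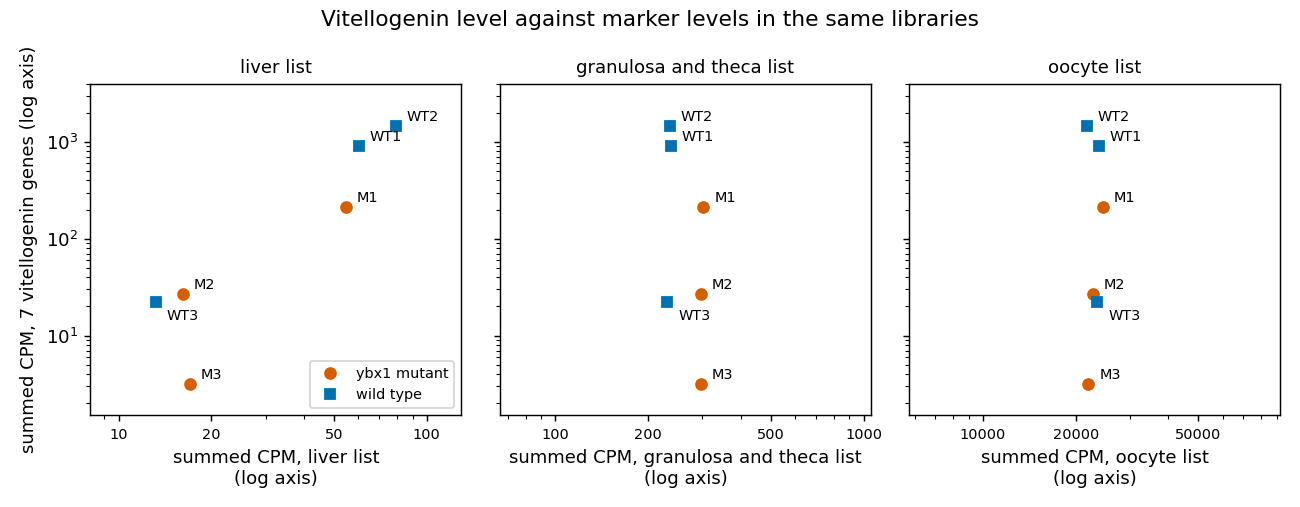
Summed CPM of the vitellogenins (vertical log axis) against the summed CPM of the liver, granulosa and theca, and oocyte lists (horizontal log axes, each spanning the same fold range). Points are libraries, M for mutant and WT for wild type: M1, WT1 and WT2 are high on the liver axis at 54.6, 60.1 and 79.5 CPM and the other 3 lie at 13.2 to 17 CPM, while the other lists vary little.

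Of the 22 liver-list genes tested, 0 were called between genotypes by edgeR (2 had an unadjusted p under 0.05, and DESeq2 called 1 of 30). Over all genes tested, 33.9% were called. For tfa the log2 fold change was -1.57 ± 0.66 SE (edgeR adjusted p = 0.0939) and for apoa2 it was -1.39 ± 1.13 SE (edgeR adjusted p = 0.375). The count of calls changed with the libraries and settings. Without mutant 1, 8 of 24 liver-list genes were called lower in mutants, among them tfa (log2 fold change -2.53, edgeR adjusted p = 0.0244), apoa2 (adjusted p = 0.0127) and apoa1b (adjusted p = 0.0189). Without wild type 3, 3 of 24 were called lower, with the replicate block 2 of 22, and without the count filter 2 of 30. Over all genes tested, the main fit called 2664 lower (15.3%). That number was 2421 without mutant 1, 2105 without wild type 3, 2838 with the replicate block and 2646 without the count filter. The liver-list counts other than the 8 without mutant 1 are not above 15.3% and are not read as a result. The 8 are not read as a result either, since mutant 1 was the mutant library with the highest liver-list sum. Without it, low genes such as fabp10a, apoa1b and apoa2 passed the count filter only through wild types 1 and 2. For fabp10a these held 61 and 23 counts, against 0 in mutants 2 and 3. A call of lower was thus partly fixed in advance for such genes.

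Vitellogenins and liver transcripts did not keep a fixed ratio. The family sum was 39.7 times the apoa2 level in mutant 1, against 130 times in wild type 1 and 182 times in wild type 2, where apoa2 rested on 158, 184 and 133 counts. It was 37.1 times the apoa1b level in mutant 1, against 158 and 184 times in wild types 1 and 2. For tfa the ratios were 36.9, 12.6 and 2.77 in mutants, against 83.3, 101 and 11.3 in wild type. Wild type 3, with few vitellogenin counts, thus had a lower tfa ratio than mutant 1, while its apoa2 ratio, on 8 apoa2 counts, was 66.4. For all 13 liver-list genes averaging at least 1 CPM, the ratio was lower in mutant 1 than in wild types 1 and 2. These ratios share the family sum, which stood 4.22-fold and 6.81-fold higher in wild types 1 and 2 than in mutant 1. The ratio thus falls for any gene not lowered as much in mutant 1, and the 13 genes are not independent. The level in mutant 1 was 0.237 times that in wild type 1 for the family, and for the 10 most alike genes it was between 0.343 times (ENSDARG00000093425) and 1.86 times (FADS3), with tfa at 0.535 times and apoa1b at 1.01 times. This sets a single mutant library against a pair of wild-type libraries and was not tested.

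Markers of other cells did not follow the vitellogenins. The summed CPM of the blood list ran from 122 to 139 in mutants and from 59.8 to 72.2 in wild type, most of it from the transferrin receptor gene tfr1a, which other cells also express (2 of 6 tested genes called higher, tfr1a and blf). Its defining haemoglobin gene hbaa1 had 6.96, 6.12 and 6.29 CPM in mutants, against 4.42, 7.6 and 12.7 CPM in wild type, and hbae1.1 was at 0 throughout. The muscle list summed to 4.37 to 5.57 CPM in mutants and 2.27 to 4.61 CPM in wild type, with 1 of 3 tested genes called higher (ckma, a creatine kinase) and myhc4 at 0 throughout. The adipocyte list summed to 28.9 to 31 CPM in mutants and 19.5 to 23.9 CPM in wild type, with 1 of 4 called higher (fabp4a, a fatty acid binding protein). Over all genes tested, 18.6% were called higher, so single calls on lists this short are not read as a result. Mutants 1 and 3 were close in each of these sums, although their vitellogenin sums differed 67.9-fold. The median r with the family over the tested genes of a list was 0.17 for oocytes and between -0.39 and -0.27 for the blood, muscle, adipocyte, leukocyte, and granulosa and theca lists.

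Genes that carry vitellogenin into the oocyte were mostly not called between genotypes. Of 22 listed genes, 12 matched, 10 were tested and 1 was called, higher in mutants, against a background of 18.6% higher and 15.3% lower over all genes. The median log2 fold change was -0.03, beside 0.01 for all genes tested. The lipoprotein receptor gene lrp13, which encodes an ovarian vitellogenin receptor in other fish, had 1442, 1413 and 1326 CPM in mutants, against 1526, 1437 and 1510 CPM in wild type (log2 fold change -0.10 ± 0.05 SE, edgeR adjusted p = 0.186). The gene vldlr, whose product takes up vitellogenin in birds, had 522, 508 and 464 CPM in mutants, against 525, 628 and 524 CPM in wild type (log2 fold change -0.17 ± 0.08 SE, edgeR adjusted p = 0.122). The call was cubn, of the endocytic receptor cubilin, with 1.46 ± 0.478 CPM in mutants and 0.607 ± 0.299 CPM in wild type (SD, n = 3 each, edgeR adjusted p = 0.0372). It was lost with DESeq2 and without mutant 2, mutant 3, wild type 1 or wild type 3.

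Of the yolk-processing and lysosomal genes, 14 of 18 matched and 13 were tested, with 2 called higher and 3 lower in mutants, a share near the 33.9% called over all genes tested, and a median log2 fold change of -0.02. The gene of cathepsin D, ctsd, had 178 ± 7.21 CPM in mutants and 180 ± 0.848 CPM in wild type (SD, n = 3 each, edgeR adjusted p = 0.788). The lysosomal membrane protein gene lamp1b fell to 166 ± 6.95 CPM in mutants, against 206 ± 4.29 CPM in wild type (SD, n = 3 each, log2 fold change -0.31 ± 0.05 SE, edgeR adjusted p = 0.000881). The peptidase gene ctsc (cathepsin C) fell by 0.21 on the log2 scale (edgeR adjusted p = 0.00763), and cst14a.2, of a cystatin, by 0.24 (edgeR adjusted p = 0.0365), the last being lost without wild type 1, wild type 2, mutant 1 or mutant 2. The cathepsin genes ctsh (2.21 ± 0.271 CPM in mutants, 1.06 ± 0.265 CPM in wild type) and ctsl.1 (14, 10 and 28 counts in mutants, 0, 0 and 5 in wild type) were the increases. As ctsl.1 passed the count filter only through the mutants, it could hardly be called other than higher.

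Several genes of oestrogen synthesis and response were higher in mutants. Of 20 listed, 13 matched and were tested, with 7 called higher and none lower, beside 18.6% higher and 15.3% lower over all genes tested. Of the 7, gper1 was at 0 in every wild type and passed the count filter only through the mutants. It could be called only higher, so its call adds no support. The median log2 fold change was 0.49, beside 0.01 for all genes tested. The nuclear receptor gene nr5a2, a regulator of steroidogenic genes, rose to 5.59 ± 0.804 CPM in mutants, against 1.30 ± 0.385 CPM in wild type (SD, n = 3 each, log2 fold change 2.13 ± 0.23 SE, edgeR adjusted p = 8.74e-05). The oestrogen receptor gene esr1, whose product drives vitellogenin genes in fish liver, had 3.9, 6.02 and 5.08 CPM in mutants, against 3.56, 2.69 and 2.66 CPM in wild type (log2 fold change 0.73 ± 0.20 SE, edgeR adjusted p = 0.0193). Mutants exceeded wild types throughout, and mutant 1 was the lowest of the mutants. The call on esr1 was lost without mutant 2, mutant 3, wild type 2 or wild type 3.

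The oestrogen-responsive gene greb1 stood at 63.0 ± 1.77 CPM in mutants and 41.4 ± 3.89 CPM in wild type (SD, n = 3 each, edgeR adjusted p = 0.000211). Among steroid enzymes, hsd17b1, which makes oestradiol from oestrone, rose by 0.47 ± 0.09 SE on the log2 scale (edgeR adjusted p = 0.00337). Likewise hsd3b1 rose by 0.49 ± 0.12 SE (edgeR adjusted p = 0.0128, lost without wild type 2 or wild type 3), and cyp17a1, of an androgen-forming hydroxylase, by 0.21 ± 0.05 SE (edgeR adjusted p = 0.00576). The remaining call was the membrane receptor gene gper1, with 18, 12 and 19 counts in mutants and 0 in each wild type, so that its highest level in any library was 0.611 CPM. Of the 20 listed genes, 7 were not matched to an identifier and so were not read. They were the aromatase genes cyp19a1a and cyp19a1b, the oestrogen receptor genes esr2a and esr2b, and cyp11a1.1, cyp11a1.2 and nr5a1a.

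Several of these genes are also on the granulosa and theca list, which marks the somatic cells around the oocyte and of which 7 of 12 tested genes were called higher in mutants and none lower, beside 18.6% and 15.3% over all genes tested. The 5 tested genes not called had log2 fold changes between -0.32 and 1.38, and only 13 of the 21 listed genes matched an identifier. The list's sum was 302, 296 and 297 CPM in mutants, against 237, 235 and 231 CPM in wild type. Most of it came from cyp17a1, with a mean of 166 CPM in mutants and 144 CPM in wild type. On the leukocyte list 4 of 7 tested genes were called higher (coro1a, il7r, ptprc and cd4-1), beside 18.6% over all genes tested. The other 3 were not called and had log2 fold changes of -1.90 (marco), -1.43 (csf1ra) and -0.18 (lck). The list's sum ran from 17 to 18.9 CPM in mutants and from 8.09 to 13.5 CPM in wild type, and cd8a was at 0 throughout. The part of other cells in the differences of the oestrogen list was not tested. Neither list set mutant 1, wild type 1 and wild type 2 apart from the rest.

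Of the lipid transport genes, 19 of 23 matched, 9 were tested and 1 was called, beside 33.9% called over all genes tested. That gene was abca1b, of a cholesterol exporter, with 8.01, 7.68 and 8.24 CPM in mutants, against 1.42, 1.14 and 2.91 CPM in wild type (log2 fold change 2.1 ± 0.26 SE, edgeR adjusted p = 0.000213). It ran against the vitellogenin pattern, as mutant 1 was level with mutants 2 and 3. The median log2 fold change of the tested genes was -0.71, beside 0.01 for all genes tested. Among them, apoa1b, apoa2 and apobb.1 are also on the liver list, and the standard errors of their log2 fold changes were 1.22, 1.13 and 1.01.

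**Figure D5:**
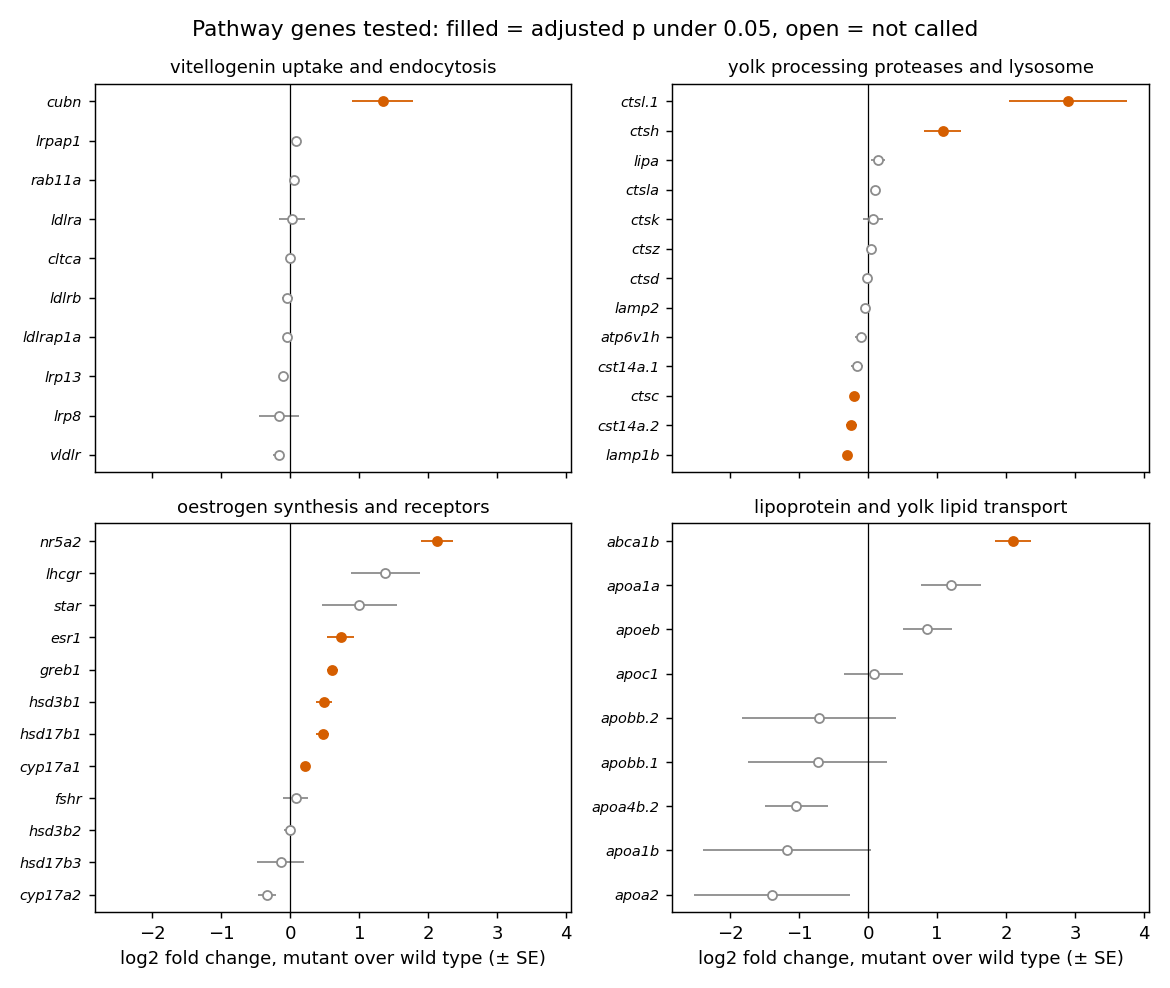
Log2 fold change, mutant over wild type, with its standard error (horizontal axis) for the tested genes of the 4 pathway lists. Filled points were called at an adjusted p under 0.05 and open points were not, and gper1, at 0 in all wild types, is left out. The receptor genes lrp13 and vldlr lie near 0, at -0.10 and -0.17, and the called genes of the oestrogen list lie to the right, with nr5a2 at 2.13.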

How the data were processed

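RNA of 6 follicle libraries, 3 mutant and 3 wild type, was compared. The deposited counts are whole numbers per Ensembl gene; whether they are tallies or rounded StringTie estimates is not given in the sources used here, and they were tested as counts. The submitters' processing notes name HISAT2, StringTie, DESeq2, FastQC 0.11.5 and the build GRCz11. The annotation release, strand setting and treatment of reads matching several genes are not given in the sources used here. The second table holds the authors' normalized counts, treated as a deposited signal on a linear scale: counts multiplied by factors specific to library and, for many genes, to gene. Both tables list 32057 genes, of which 28988 had a symbol in the reference table.

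CPM used TMM-scaled library sizes. Genotypes were compared with edgeR's quasi-likelihood test (edgeR 4.0.16, R 4.3.3) on the counts after filterByExpr (minimum count 10, minimum total 15), fitting genotype alone. P-values were adjusted over 17385 genes by Benjamini and Hochberg's method, and genes below 0.05 were called. The fit was tested on simulated data. Alternatives were DESeq2 1.42.0, other scaling, no filter, a replicate block and leaving out each library. The floor for genes at 0 is 3 counts, 0.079 CPM in the largest library and 0.179 CPM in the smallest; floors and intervals take each count as independent and cover counting error only. Intervals with every 2 counts taken as 1 were added after seeing the data.

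List genes were matched by symbol, ignoring case, where a single identifier fitted. Named genes were the members, up to 6 called genes of at least 1 CPM per pathway list and direction, the 4 highest of each marker list, ybx1, cdkn1a and the 10 genes most like the family; ctsd, lrp13, vldlr, fabp10a, hp, ctsl.1, gper1, hbae1.1, myhc4, cd8a, marco, csf1ra, lck, vtg8 and mcoln2, outside that rule, were named after their values were seen. Members and lists were chosen with earlier results of these data known. Sequences were not used here.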

Additional observations from a re-analysis of the deposited data

How the results depend on the processing

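The lower family mean in mutants kept its direction in every alternative tried: the log2 difference of -3.48 lay between -3.49 and -3.29 under other scalings, the deposited values, a pseudocount of 1 CPM or a ratio of means, and between -5.37 and -2.02 when single libraries were left out. The mean shares of the members moved by less than their spread on the deposited scale. At an adjusted p under 0.01, calls fell to 6 pathway genes higher (11 at 0.05), 10 marker genes higher and 1 lower (16 and 2 at 0.05), and 2028 higher and 1493 lower over all genes. Marker genes called lower numbered 6 with DESeq2, 7 without the count filter and 6 with the replicate block. Over all genes, 2487, 2646 and 2838 were called lower in these settings. Leaving out single libraries gave 1 to 12 marker genes lower and 2 to 5 pathway genes lower, beside 1944 to 2421 over all genes. The 12, the 5 and the 2421 were without mutant 1. Beyond the samples left out, the cause was not tested. The replicate numbers were not taken as pairs: deviations of same-numbered libraries correlated at 0.100, 0.0302 and 0.143, and 5 of 6 libraries correlated best with their own number, a hint from the data and not the design. With that block, pathway calls were 12 higher and 3 lower, beside 3272 and 2838 over all genes. Depth limits the low libraries, where vtg3 rests on 0 to 6 counts.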
